A study of Rattus norvegicus with 8 samples.

Results

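Transcripts of 51 genes that build, stabilise or travel along microtubules were examined in the rat hippocampus after intracranial self-stimulation (ICSS). In this procedure an animal triggers pulses of current through its own implanted electrode, here aimed at the lateral hypothalamus. The genes were taken by symbol from the platform annotation of the array: names that begin with Kif and a digit, Kifc, Tuba, Tubb or Stmn, together with Map1a, Map1b, Map2, Map4, Map6, Mapt and Dcx. They made up 51 of 14871 named genes and were measured by 103 of 45220 features. The set held 7 microtubule-associated proteins (MAPs, with doublecortin counted among them), 4 stathmins, 5 alpha tubulins, 6 beta tubulins and 29 kinesins. The rule that picks them uses symbols alone, though it was set with earlier results of these data known.

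The ICSS group had 4 pools and the Sham group had 4 pools, each made from 3 male Wistar rats aged 13 weeks. Rats of both groups carried a stainless steel electrode in the right hemisphere, had 7 days of recovery and were placed in the box for 20 min on each of 2 days. Rats of the ICSS group then self-administered 2500 trains of 0.3 s at 50 Hz, at currents of 10 to 400 µA. Sham rats were left in the box for 40 min and received no current. Surgery, electrode, recovery and the earlier days in the box were thus shared by both groups. The act of self-stimulation and the current were not. How long after the session tissue was taken is not stated in these sources. Hippocampi of the electrode's side were pooled, labelled with Cy5 and hybridised against a Cy3-labelled common reference of brain tissue from 3 ICSS and 3 Sham rats. Every value below is a log2 ratio of pool over reference, so 0 means equal signal, and every difference is ICSS minus Sham on that scale.

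Microtubules are hollow polymers of alpha and beta tubulin dimers. They give axons and dendrites their shape and serve as tracks for transport. MAPs bind along the polymer and stabilise or space it, while stathmins bind free dimers and favour disassembly. Kinesins are motors that use ATP to carry cargo along the tracks, to depolymerise their ends or to build the mitotic spindle. In the hippocampus, tau lies mainly in axons and Map2 mainly in dendrites, and doublecortin marks the young neurons of the dentate gyrus.

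Medians of the 8 arrays lay between -0.032 and 0.016, and arrays correlated with each other at r of 0.586 to 0.873, with Sham replicate 4 at the low end (0.586 to 0.779). Markers of hippocampal pyramidal neurons had a median ratio of 0.45 to 0.68 in ICSS pools and 0.64 to 0.92 in Sham pools. Markers of thalamic neurons, a tissue the labels place in the reference, had a median of -0.49 to -0.30 in ICSS pools and -0.53 to -0.41 in Sham pools. Pooled tissue gives 1 value per gene, so fewer cells of a type and less RNA per cell cannot be told apart.

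None of the 51 genes passed limma's test at an adjusted p under 0.05, against 0.0461% of all 34738 genes and unnamed probes. At an unadjusted p under 0.05 there were 7 of 51, or 13.7%, against 12.6% of all genes and probes, so the set did not stand out by this count. Of the 7, Kif23 and Kif15 had the higher mean in ICSS pools, against 6.61% of all genes and probes that were higher at this threshold. Kifc3, Kifc2, Mapt, Map1a and Dcx had the lower mean, against 6.03%. The ICSS and Sham pools did not overlap for 7 genes, also 13.7%, against 7.80% of all genes and probes. The ICSS pools were all higher for Kif23 (4.13% of all genes and probes) and all lower for Kifc3, Kifc2, Mapt, Map1a, Kif5c and Kif18b (3.66% of all genes and probes). The difference was below 0 for 30 of 51 genes, or 58.8%, against 47.4% of named genes, and its median was -0.025 against 0.0069 over named genes. The 95% interval around a gene's difference, not adjusted for the number of genes, extended by a median of 0.16 to either side. Differences smaller than this could not be seen for a typical gene. The adjusted test asked for more: Kifc3, with a difference of -0.46, did not pass it.

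**Figure D1:**
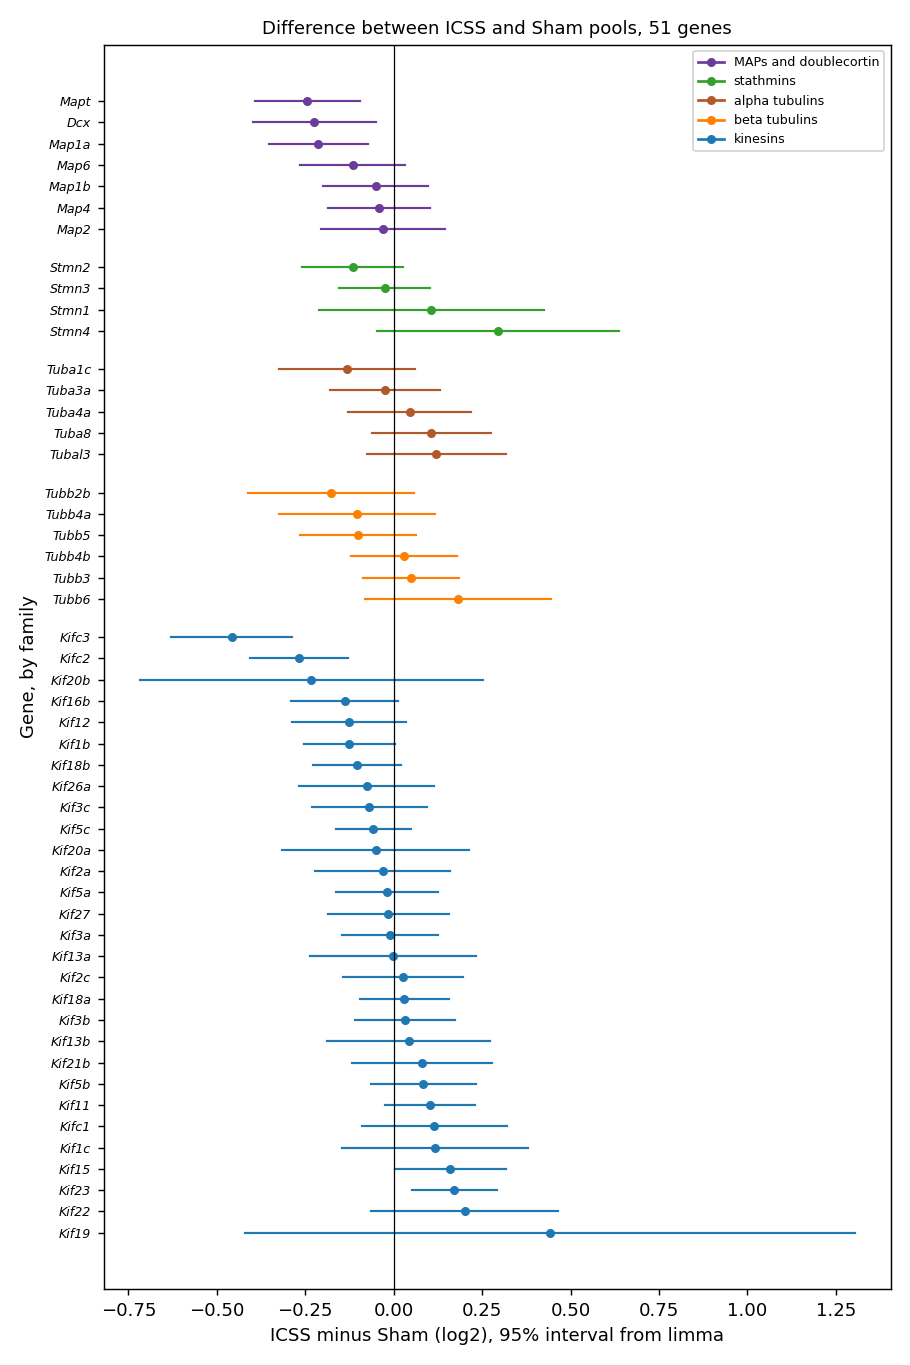
Difference between ICSS and Sham pools (log2, horizontal axis) for each of the 51 genes, grouped by family, as points with 95% intervals from limma. All 7 MAPs lie left of 0, whereas the other families lie on both sides. The interval of Kif19 is the widest.

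The MAPs were the family whose differences all had the same sign. All 7 of 7 were below 0, with a median of -0.12, against 47.4% of named genes below 0 and a median of 0.0069. Tau, Map1a and Dcx had differences of -0.21 to -0.24 that did not pass the adjusted test, and the other 4 lay between -0.031 and -0.12. The family mean per array was -0.14, -0.14, -0.16 and -0.12 in ICSS pools, against -0.083, -0.0041, 0.049 and 0.0068 in Sham pools. The lowest Sham mean was that of replicate 1, and no Sham mean reached the ICSS values. Map1b, Map2 and Map6 had features of both signs, so their sign is that of a mean over features. Of 19 other structural MAPs and doublecortin relatives outside the set, 10 were below 0, with a median difference of -0.036. Beside this, marker lists of other cell types did not share one direction, with no marker called. In ICSS pools 11 of 12 oligodendrocyte markers were higher (median difference 0.24). So were 11 of 14 markers of vessels and leptomeninges (0.16) and 12 of 14 markers of thalamic neurons (0.061). Of the microglia markers, 7 of 9 were lower (median difference -0.090), against 47.4% of named genes lower. Markers of pyramidal neurons had 5 of 9 lower, and those of interneurons 5 of 10. The median ratio of the vessel markers ran over -0.33 to -0.052 in ICSS pools and -0.35 to -0.14 in Sham pools. The part of these cell types in the MAP values was not tested.

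Mapt encodes tau, the axonal MAP known for its aggregates in neurodegeneration. It had log2 ratios of -0.50, -0.42, -0.35 and -0.44 in ICSS pools, against -0.28, -0.24, -0.050 and -0.16 in Sham pools. All ICSS pools lay below all Sham pools. The difference was -0.24 (SE 0.066, limma adjusted p = 0.195), a ratio of 0.844 between ICSS and Sham.

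Map1a, the MAP of mature dendrites and axons, had log2 ratios of -0.48, -0.57, -0.48 and -0.44 in ICSS pools, against -0.41, -0.22, -0.24 and -0.24 in Sham pools. The groups were separate, although Sham replicate 1 lay closer to the ICSS pools than to the other Sham pools. Its difference was -0.21 (SE 0.063, limma adjusted p = 0.224).

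Dcx encodes doublecortin, which stabilises microtubules in migrating and newly formed neurons. Its log2 ratios were -0.64, -0.64, -0.73 and -0.73 in ICSS pools, against -0.68, -0.45, -0.34 and -0.38 in Sham pools. Sham replicate 1 lay among the ICSS pools, and the other Sham pools were higher. The difference was -0.22 (SE 0.078, limma adjusted p = 0.293). Other markers of immature granule neurons did not share one direction: 4 of 9 were higher and 5 of 9 lower in ICSS pools. Sox11, a transcription factor of young neurons, had a difference of 0.41 (limma adjusted p = 0.181), and Neurod1, another such factor, one of -0.25 (limma adjusted p = 0.465). The median ratio of the list ran over -0.26 to 0.0080 in ICSS pools and -0.35 to -0.011 in Sham pools. Their part in the value of Dcx was not tested.

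Map6, which protects microtubules against cold and drugs, had a mean of -0.26 ± 0.024 in ICSS pools and -0.15 ± 0.12 in Sham pools (SD, n = 4 each). Its difference was -0.12 (SE 0.066, limma adjusted p = 0.504). Map1b, the MAP that prevails in growing axons, had log2 ratios of 0.46, 0.34, 0.28 and 0.35 in ICSS pools, against 0.32, 0.33, 0.50 and 0.47 in Sham pools. The groups overlapped widely, and the difference was -0.050 with a 95% interval of -0.20 to 0.098. Map2, the dendritic MAP, had log2 ratios of -0.0069, 0.00059, -0.16 and -0.025 in ICSS pools, against 0.068, 0.12, -0.073 and -0.19 in Sham pools. These values also overlapped, with a difference of -0.031 (95% interval -0.21 to 0.14). Map4, the MAP found in most cell types, had a difference of -0.042 (95% interval -0.19 to 0.10).

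The promoters of Map1a and Dcx, MAP genes at an unadjusted p under 0.05 for which a RefSeq promoter sequence was at hand, are shown to set beside those of mitotic kinesins given further on. Each runs from 250 bases before to 50 bases after the annotated start, 5′ to 3′ on the gene's strand. Capitals mark the CCAAT box (CCAAT, or ATTGG on the other strand) and the cell cycle genes homology region (TTTGAA, or TTCAAA), an element known from genes of dividing cells. Map1a lies at chr3:128722445-128722744 on the plus strand and Dcx at chrX:112304112-112304411 on the minus strand of GRCr8.
Map1a: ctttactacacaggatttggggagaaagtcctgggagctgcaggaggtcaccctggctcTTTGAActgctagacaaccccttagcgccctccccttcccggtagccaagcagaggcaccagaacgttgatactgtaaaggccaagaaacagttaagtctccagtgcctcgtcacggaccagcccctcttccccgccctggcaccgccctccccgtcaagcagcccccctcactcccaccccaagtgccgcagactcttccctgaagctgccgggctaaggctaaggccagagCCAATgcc
Dcx: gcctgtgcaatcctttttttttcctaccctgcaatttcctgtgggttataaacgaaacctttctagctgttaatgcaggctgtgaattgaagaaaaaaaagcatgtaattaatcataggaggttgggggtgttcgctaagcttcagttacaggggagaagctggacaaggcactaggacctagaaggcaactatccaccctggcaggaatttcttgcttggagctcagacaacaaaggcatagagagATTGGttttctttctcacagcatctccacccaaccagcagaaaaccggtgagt
The Map1a window held TTTGAA at position 60 and CCAAT at position 293, counted from the first base printed, and that of Dcx held ATTGG at position 248. Over all 33469 rat promoters of this length in the table, 18.3% held the homology region on either strand and 37.5% the CCAAT box. These are matches of letters, not sites shown to be bound.

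Stathmins gave no common direction. Of the 4, 2 were higher and 2 lower, with a median of 0.040, and none had an unadjusted p under 0.05. Stmn4, a neuronal stathmin, had a mean of -0.012 ± 0.33 in ICSS pools and -0.31 ± 0.18 in Sham pools (SD, n = 4 each). The difference of 0.29 (SE 0.15, limma adjusted p = 0.462) came with ICSS pools that ran from -0.39 to 0.41. Stmn2, which is associated with axon growth and repair, averaged 0.13 ± 0.091 in ICSS pools and 0.24 ± 0.066 in Sham pools (SD, n = 4 each), a difference of -0.12 (limma adjusted p = 0.489). Stmn1, the stathmin of growing and dividing cells, had a difference of 0.11 (95% interval -0.21 to 0.42). Stmn3 had a difference of -0.026 (95% interval -0.15 to 0.10).

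Alpha tubulins were likewise mixed, with 2 of 5 below 0 and a median difference of 0.045. None had an unadjusted p under 0.05, and no gene had separate groups. Tuba1c had the lowest difference, -0.13 (SE 0.086, limma adjusted p = 0.556), and Tubal3 the highest, 0.12 (SE 0.088, limma adjusted p = 0.598). Tuba8, the alpha tubulin with the highest ratio to the reference, differed by 0.11 (95% interval -0.062 to 0.28). Tuba4a differed by 0.045 (95% interval -0.13 to 0.22) and Tuba3a by -0.025 (95% interval -0.18 to 0.13). The tubulin genes are close in sequence, so a feature named for one of them may also have bound another.

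Beta tubulins had 3 of 6 differences below 0, with a median of -0.036 and no unadjusted p under 0.05. Tubb2b, abundant in developing neurons, had a difference of -0.18 (SE 0.10, limma adjusted p = 0.515). Tubb6 had one of 0.18 (SE 0.12, limma adjusted p = 0.551). Tubb3, the beta tubulin used as a marker of neurons, had log2 ratios of -0.34, -0.34, -0.34 and -0.38 in ICSS pools, against -0.50, -0.45, -0.28 and -0.38 in Sham pools. The ICSS pools lay close together within the spread of the Sham pools, and the difference was 0.050 (95% interval -0.086 to 0.19). Tubb5 and Tubb4a each differed by -0.10 (limma adjusted p = 0.593 and 0.693). Tubb4b differed by 0.029 (95% interval -0.12 to 0.18). Tubb4a is expressed in neurons and myelinating oligodendrocytes, and 11 of 12 oligodendrocyte markers were higher in ICSS pools with none called. Their median ratio ran over -0.15 to 0.35 in ICSS pools and -0.46 to 0.11 in Sham pools, and its part in the value of Tubb4a was not tested.

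Kinesins, the largest family, had 16 of 29 differences below 0, or 55.2%, against 47.4% of named genes, and a median of -0.010. At an unadjusted p under 0.05 there were 4, or 13.8%, near the 12.6% of all genes and probes. The minus-end-directed kinesins of the C-terminal class held the lowest 2 differences of the whole set. Kifc3, a motor known from transport and cell junctions in epithelia, had log2 ratios of -0.61, -0.75, -0.63 and -0.62 in ICSS pools, against -0.32, -0.29, -0.14 and -0.015 in Sham pools. Every ICSS pool lay below every Sham pool. The difference was -0.46 (SE 0.077, limma adjusted p = 0.0897), a ratio of 0.728, and it ranked at 56 of 34738 by p.

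Kifc2, a neuronal motor of the same class, had log2 ratios of -0.36, -0.25, -0.45 and -0.34 in ICSS pools, against -0.17, -0.061, -0.088 and -0.0049 in Sham pools. The groups were again separate, with a difference of -0.27 (SE 0.062, limma adjusted p = 0.154). Kifc1, which works in the spindle, differed by 0.11 (95% interval -0.090 to 0.32). Each of Kifc3 and Kifc2 was measured by 1 feature, so neither value has a second probe beside it.

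**Figure D2:**
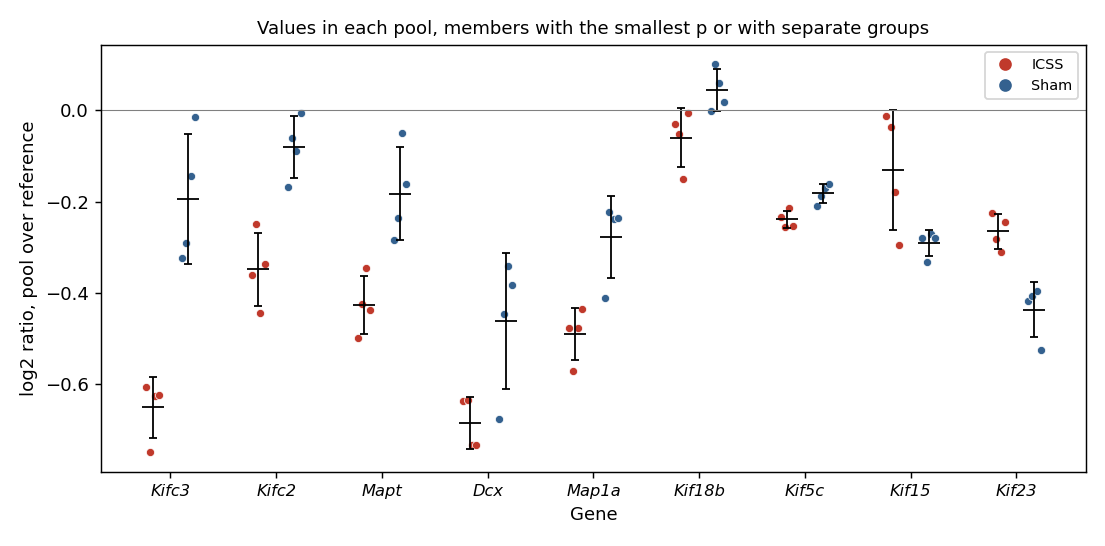
Log2 ratio of pool over reference (vertical axis) in each ICSS pool and each Sham pool, left to right, for the 9 genes at an unadjusted p under 0.05 or with separate groups. Points are pools, and bars give mean and SD of 4. The ICSS pools of Kifc3 lie between -0.75 and -0.61, below Sham pools at -0.32 to -0.015, while the ICSS pools of Kif23 lie above its Sham pools.

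The 3 conventional kinesins, motors of axonal and dendritic transport, had differences between -0.057 and 0.084, none at an unadjusted p under 0.05. Kif5a, a conventional kinesin of neurons, had log2 ratios of -0.48, -0.52, -0.54 and -0.60 in ICSS pools, against -0.62, -0.58, -0.48 and -0.39 in Sham pools. The groups overlapped throughout, and the difference was -0.018 (95% interval -0.16 to 0.13). Kif5c, its close relative, had log2 ratios of -0.23, -0.26, -0.21 and -0.25 in ICSS pools, against -0.21, -0.19, -0.17 and -0.16 in Sham pools. The groups did not overlap, but the difference was only -0.057 (SE 0.048, limma adjusted p = 0.652). Kif5b, the conventional kinesin present in most cells, differed by 0.084 (95% interval -0.065 to 0.23).

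Kif1b, which carries synaptic vesicle precursors and mitochondria, had a mean of -0.15 ± 0.029 in ICSS pools and -0.021 ± 0.082 in Sham pools (SD, n = 4 each). Its difference was -0.12 (SE 0.058, limma adjusted p = 0.408). Kif16b, a motor of early endosomes, differed by -0.14 (SE 0.068, limma adjusted p = 0.43). The 5 measured genes of the class that holds both ran from -0.14 to 0.12, the highest being Kif1c, and 3 of them were below 0. The subunits of heterotrimeric kinesin, which works in cilia and in vesicle transport, had differences of -0.010 for Kif3a, 0.032 for Kif3b and -0.068 for Kif3c. The widest of their 95% intervals was that of Kif3c, -0.23 to 0.095. Kif21b, a motor of dendrites and axons, differed by 0.080 (95% interval -0.12 to 0.28), and Kif12 by -0.13 (limma adjusted p = 0.504).

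Kinesins of mitosis had 7 of 10 differences above 0 and a median of 0.067. The 3 below 0 made up 30.0%, against 47.4% of named genes. Kif23, a component of the centralspindlin complex of dividing cells, had log2 ratios of -0.23, -0.28, -0.31 and -0.24 in ICSS pools, against -0.42, -0.41, -0.40 and -0.53 in Sham pools. All ICSS pools were above all Sham pools. The difference was 0.17 (SE 0.054, limma adjusted p = 0.252).

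Kif15, a spindle motor also found in growing axons, had log2 ratios of -0.012, -0.036, -0.18 and -0.29 in ICSS pools, against -0.28, -0.33, -0.27 and -0.28 in Sham pools. ICSS replicate 4 lay among the Sham pools and the other ICSS pools above them. The difference was 0.16 (SE 0.070, limma adjusted p = 0.386). Kif11, the motor that pushes spindle poles apart, differed by 0.10 (limma adjusted p = 0.484), and Kif22, which binds chromosomes, by 0.20 (limma adjusted p = 0.514).

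Kif18b, which shortens spindle microtubules, had log2 ratios of -0.030, -0.051, -0.15 and -0.0061 in ICSS pools, against -0.0021, 0.10, 0.059 and 0.018 in Sham pools. Its groups were separate, though the highest ICSS pool lay close to the lowest Sham pool, with a difference of -0.10 (SE 0.056, limma adjusted p = 0.476). Other markers of proliferating cells were split, 9 of 16 higher and 7 of 16 lower in ICSS pools with none called. Plk1, a mitotic kinase, had a difference of -0.20 (limma adjusted p = 0.178) and Aurkb, another, one of 0.44 (limma adjusted p = 0.272). The median ratio of this list ran over -0.15 to 0.049 in ICSS pools and -0.17 to 0.0029 in Sham pools, and its part in the values of mitotic kinesins was not tested.

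The promoters of Kif23 and Kif15, the kinesins with a higher ICSS mean at an unadjusted p under 0.05, are shown with the same capitals. Kif23 lies at chr8:71320535-71320834 on the minus strand and Kif15 at chr8:131479154-131479453 on the plus strand of GRCr8.
Kif23: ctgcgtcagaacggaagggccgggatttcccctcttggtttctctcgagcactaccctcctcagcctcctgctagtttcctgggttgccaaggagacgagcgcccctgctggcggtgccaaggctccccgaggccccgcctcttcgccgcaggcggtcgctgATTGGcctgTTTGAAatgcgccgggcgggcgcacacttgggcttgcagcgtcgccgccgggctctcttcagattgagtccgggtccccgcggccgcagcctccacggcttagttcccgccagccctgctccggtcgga
Kif15: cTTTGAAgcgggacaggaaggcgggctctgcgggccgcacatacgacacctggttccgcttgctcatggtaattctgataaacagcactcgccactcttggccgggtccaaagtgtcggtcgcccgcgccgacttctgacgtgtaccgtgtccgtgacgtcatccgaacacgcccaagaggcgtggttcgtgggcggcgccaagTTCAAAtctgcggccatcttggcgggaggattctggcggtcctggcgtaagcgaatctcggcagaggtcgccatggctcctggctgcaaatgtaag
The Kif23 window held ATTGG at position 163 and TTTGAA at position 172, and the Kif15 window held TTTGAA at position 2 and TTCAAA at position 205. Of the 39 genes of the set with a promoter in the RefSeq table, 9 held the homology region, against 18.3% of all promoters. The CCAAT box was held by 20, against 37.5%, and both by 7, against 7.4%. The set was counted by gene (39 genes with 40 promoters) and the background by promoter, so the units differ. The 7 were Kif20b, Kif22, Kif23, Kifc1, Map1a, Tuba1c and Tubb4b, whose differences had both signs.

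Of the kinesins with wide scatter, Kif19, a motor that sets the length of motile cilia in mouse, differed by 0.44 with a 95% interval of -0.42 to 1.30. Its log2 ratios were -0.062, -0.93, -2.03 and -1.71 in ICSS pools, against -1.09, -1.47, -2.02 and -1.93 in Sham pools, and ICSS replicate 1 was far above the rest. Markers of ependymal and motile cilia had 6 of 8 differences above 0, none called, with a median ratio of 0.095 to 0.54 in ICSS pools and -0.38 to 0.10 in Sham pools. Tekt4, a tektin of cilia, differed by 0.55 (limma adjusted p = 0.255) and Ccdc39, a ciliary axoneme protein, by -0.14 (limma adjusted p = 0.416). ICSS replicate 1, the highest for Kif19, was the lowest ICSS pool for the median of this list, and the list's part in the value was not tested.

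Ratios to the common reference describe how hippocampal pools compared with the brain tissue mixed in it, with no test, and ratios of different genes say nothing of which is more abundant. Tuba8 stood highest, at 1.30 ± 0.14 in ICSS pools and 1.19 ± 0.066 in Sham pools (SD, n = 4 each). Map4 followed at 0.58 ± 0.10 in ICSS pools and 0.62 ± 0.055 in Sham pools, then Map1b at 0.35 ± 0.076 in ICSS pools and 0.40 ± 0.095 in Sham pools. Map4 and Map1b had values that did not overlap within either group, whereas Map1b, Tubb4a and Kif2a, next in order, overlapped one another. At the low end, Kif19 had -1.18 ± 0.88 in ICSS pools and -1.63 ± 0.43 in Sham pools, and Stmn1 had -0.98 ± 0.33 in ICSS pools and -1.09 ± 0.090 in Sham pools. Dcx came next, followed by Kif5a at -0.54 ± 0.049 in ICSS pools and -0.52 ± 0.10 in Sham pools. Over all 8 arrays, 7 genes were above 0 throughout and 19 below 0 throughout. What the reference held limits these values: the labels give hippocampus, thalamus and cortex of the side opposite the electrode, while the design text gives hippocampus of the electrode's side alone.

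**Figure D3:**
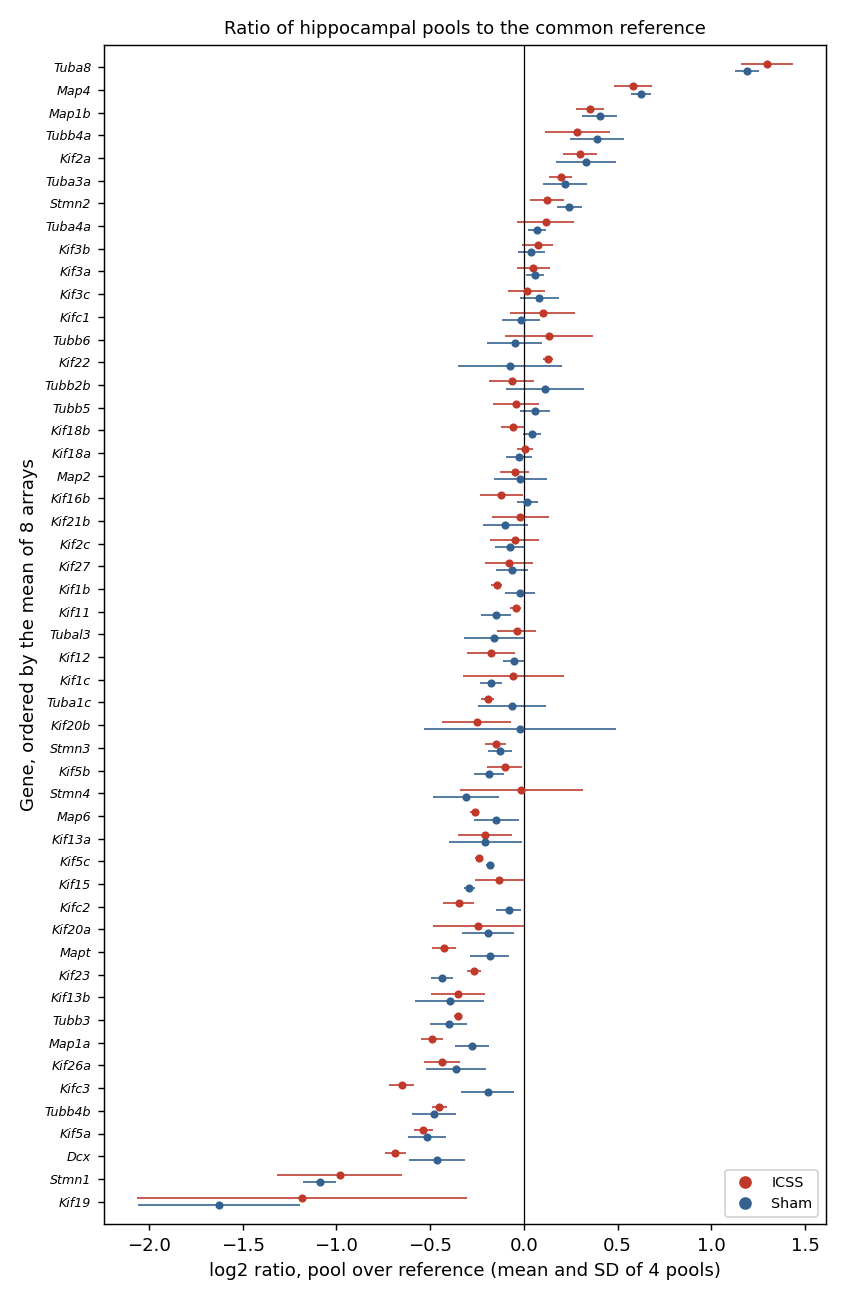
Log2 ratio of hippocampal pools over the common reference (horizontal axis), as mean and SD of 4 ICSS pools (upper mark of each gene) and 4 Sham pools (lower mark), ordered by the mean over 8 arrays. Tuba8 stands highest, at 1.30 in ICSS pools and 1.19 in Sham pools, and Kif19 and Stmn1 lowest.

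The value of a gene was the mean over its features, and 26 of the 51 genes had 2 or more. Of these, 13 had features of both signs, 6 had all features lower in ICSS pools and 7 all higher. Mapt had a feature at -0.43 (SE 0.12, limma adjusted p = 0.177 over all features) and another at -0.057 (SE 0.059, limma adjusted p = 0.707). An exact permutation test of the gap between these features over 70 assignments gave p = 0.0571, or 0.619 after Benjamini-Hochberg adjustment over the 13 genes with exactly 2 features. The smallest p this test allows is 0.0286. The features of Map1a lay at -0.29 and -0.14, so both were below 0. Map2, with 11 features, had 8 below 0 and 3 above, between -0.11 and 0.090.

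Features designed on a RefSeq mRNA and on other records of the same gene often gave different values. Of the 83 RefSeq features, 15 were lower and 2 higher at an unadjusted p under 0.05, 18.1% lower against 7.69% of all RefSeq features with 1 symbol, of which 8.54% were higher. These 15 came from 12 genes. Of the 20 features of other records, none was lower at this threshold, against 2.76% of all such features. With 20 features, none cannot be told apart from that share. None of the 103 features passed the adjusted test (lowest limma adjusted p = 0.0654), against 0.117% of all features. At an unadjusted p under 0.05 there were 17, against 13.3% of all features.

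Both kinds of feature were present for 13 genes, and the RefSeq ones gave the lower difference in 9 of them, against 52.9% of 3604 named genes. The median gap was -0.14 against -0.011. Map6 had a difference of -0.23 on RefSeq features and 0.12 on the other one. Kif5c had -0.26 on its RefSeq feature and 0.044 on the mean of the others. Tuba1c had -0.28 on RefSeq features against 0.017, and Stmn2 -0.29 against -0.027. In Kif18a, Kif2c, Kif3c and Tuba8 the RefSeq features gave the higher difference. The RefSeq feature of Kif5c had separate groups, at -0.66 ± 0.10 in ICSS pools and -0.41 ± 0.084 in Sham pools (SD, n = 4 each). Its limma adjusted p was 0.184.

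With RefSeq features alone, a setting chosen after the data were seen, 12 of 50 genes had an unadjusted p under 0.05, or 24.0%, against 14.7% of named genes. Of these, 10 were lower in ICSS pools, where 7.39% of named genes were. No gene passed the adjusted test (lowest limma adjusted p = 0.0883). All 7 MAPs remained below 0, with a median of -0.21 in place of -0.12. Which kind of feature is nearer to the amount of transcript was not tested.

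**Figure D4:**
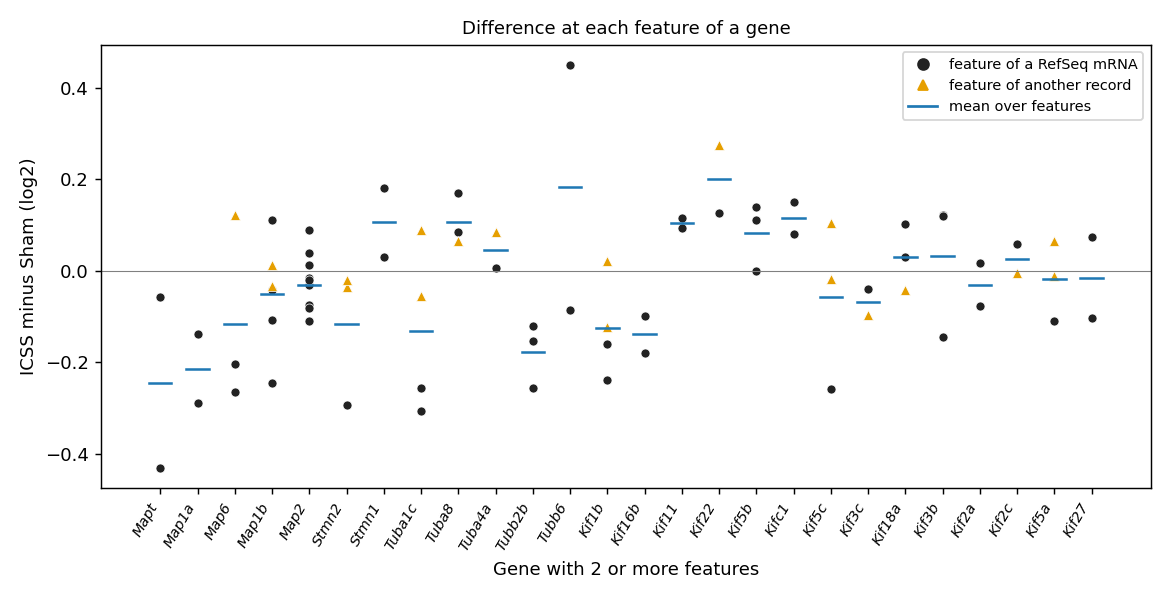
Difference between ICSS and Sham pools (log2, vertical axis) at each feature of the 26 genes with 2 or more. Circles are features of a RefSeq mRNA, triangles features of other records, and bars the mean used for the gene. Mapt has features at -0.43 and -0.057, and in Map6, Kif5c, Tuba1c and Stmn2 the circles lie below the triangles.

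Genes outside the families above were counted as background, 144 in all. Most act with microtubules, and the rest belong to intermediate filaments (9 genes) or the actin cytoskeleton of dendrites (17 genes). None passed the adjusted test, and 66 were higher and 78 lower in ICSS pools. At an unadjusted p under 0.05 there were 4 higher and 17 lower, of which the actin list held 2 higher and 3 lower. The 17 lower ones made up 11.8%, against 6.36% of named genes lower and 6.79% higher at that threshold. ICSS and Sham pools did not overlap for 12 of the 144, or 8.33%, near the 7.80% of all genes and probes. Of these, 2 were higher and 10 lower in ICSS pools, against 4.13% and 3.66% of all genes and probes. Genes with separate groups named below are among the 2 of smallest p in their list. Kinesin light chains and cargo adaptors had 13 of 15 differences below 0. Clstn3, a calsyntenin, differed by -0.29 (limma adjusted p = 0.347) and Madd, an adaptor of synaptic vesicle transport, by -0.40 (limma adjusted p = 0.349).

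Cytoplasmic dynein and dynactin, the motor that runs opposite to most kinesins, had 10 of 22 below 0 and 12 above. At an unadjusted p under 0.05, 2 were lower and 1 higher. The heavy chain Dync1h1 differed by -0.23 (limma adjusted p = 0.252) with separate groups, and the dynactin subunit Dctn1 by -0.36 (limma adjusted p = 0.374). Genes of tubulin folding and nucleation had 10 of 19 below 0, with Tubgcp4 at -0.14 and gamma tubulin, Tubg1, at -0.11. Tubulin-modifying enzymes had 6 of 11 below 0. Among them the polyglutamylase subunit Ttll1 differed by -0.22 (limma adjusted p = 0.313) and the deacetylase Hdac6 by -0.28 (limma adjusted p = 0.352).

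Severing and plus-end proteins had 10 of 16 below 0. Both Macf1, a linker of actin and microtubules, and Mapre2, an end-binding protein, had separate groups, at -0.18 (limma adjusted p = 0.263) and -0.15 (limma adjusted p = 0.331). Other structural MAPs and doublecortin relatives had 10 of 19 below 0 and held opposite values of related kinases. Dclk3 had -1.16 ± 0.059 in ICSS pools and -0.83 ± 0.11 in Sham pools (SD, n = 4 each), a difference of -0.34 (limma adjusted p = 0.125), and Dclk1 differed by 0.34 (limma adjusted p = 0.217).

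Kinases and phosphatases that act on MAPs had 8 of 16 below 0. Mark2, which phosphorylates tau, differed by -0.24 (limma adjusted p = 0.179) with separate groups, and Cdk5, another tau kinase, by -0.12 (limma adjusted p = 0.416). Intermediate filaments had 3 of 9 below 0, with nestin, Nes, at 0.14 (limma adjusted p = 0.479) and vimentin, Vim, at 0.57 (limma adjusted p = 0.522). The actin cytoskeleton of dendrites had 8 of 17 below 0. Add1, an adducin, differed by 0.23 (limma adjusted p = 0.153) and drebrin, Dbn1, by -0.28 (limma adjusted p = 0.244), both with separate groups.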

How the data were processed

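The values deposited by the authors are log2 ratios, 1 for each feature on each of 8 arrays of 2 colours, hybridised with 500 ng of RNA per pool. Per the submitters' processing notes limma was used, with no version stated. Normalization, background correction and slide or scan are not given in these sources, and the base of the logarithm was taken as 2. The direction was taken as Cy5 (pool) over Cy3 (reference) from the labels. There was no dye swap. All arrays shared a median absolute ratio of 0.132, and no spot intensities were used. The slice levels differ between the labels and the design text.

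Of 45220 features, 25353 had 1 platform symbol, 48 several and 19819 none. Symbols were updated through the GRCr8 gene table for 25306. Features were averaged per gene, giving 14871 named genes and 19867 unnamed probes. ICSS was set against Sham with limma 3.58.1 in R 4.3.3 (lmFit, eBayes, two-sided, no covariates, prior of 3.83 degrees of freedom), with Benjamini-Hochberg adjustment over all 34738. The procedure was tested on simulated data. P-values measure the spread between pools of 3 rats, which the labels call biological replicates, and the 4 arrays per group limit the precision. Deviations of same-numbered pools correlated at r of -0.053 to 0.058, so the values showed no pairing by replicate number. These correlations cannot tell whether pools were processed in numbered pairs.

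The members and gene lists were chosen with earlier results of these data known. The rule named every tubulin, stathmin and MAP member, the main transport kinesins, the 12 kinesins of smallest p, and the 2 genes of smallest p of a list. Of the transport kinesins it listed, Kif1a, Kif17 and Kif21a were not found among features with 1 symbol and were not analysed. Tuba1a, Tuba1b and Tubb2a were not among the 51 genes either. Kif1c, Kif19, Kif2a, Kif20b, Kif26a and Kif27 were named after their values were seen. Per-pool values are given for genes at an unadjusted p under 0.05 or with separate groups, and for Dcx, Mapt, Map2, Map1b, Tubb3 and Kif5a. Promoters were read from a RefSeq table (GRCr8), matched by Entrez gene identifier for 39 of the 51 genes. Alternatives covered single features, scaling, a replicate block, array weights, moderation and single arrays left out.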

Additional observations from a re-analysis of the deposited data

Results flagged for a closer look

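In 102 groups of 4 pools, a single pool lay far from the other 3 by Dixon's 95% critical value for the gap over the group's range in 13, and chance alone marks about 1 in 20 such groups. Among ICSS pools these were replicate 1 for Kif27 (0.11), replicate 2 for Kifc3 (-0.75), Tubb4b (-0.51) and Kif26a (-0.58), replicate 3 for Map2 (-0.16) and replicate 4 for Tubb3 (-0.38). Among Sham pools these were replicate 1 for Map1a (-0.41) and replicate 2 for Tubb5 (-0.057) and Kif15 (-0.33). Sham replicate 4 accounted for 4: Map4 (0.54), Tuba4a (-0.0028), Kif23 (-0.53) and Kif20b (0.74). In Kif20b the other Sham pools lay between -0.35 and -0.21, and the mean was -0.25 ± 0.18 in ICSS pools and -0.019 ± 0.51 in Sham pools (SD, n = 4 each).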

How the results depend on the processing

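In every alternative run, 0 genes of the set were called (limma, 6 to 17 genes or features at an unadjusted p under 0.05). The genes and probes called numbered 16 as reported, 53 with each feature on its own, 34 with array quality weights, 0 with the replicate number as a block (4543 at an unadjusted p under 0.05), and 0 to 153 with a single array left out, the most without ICSS replicate 1. The block did not bear on calls of the set, which had none. The MAP median was -0.066 over single features, -0.21 with RefSeq features alone, a setting chosen after the data were seen, and -0.15 to -0.088 with a single array left out, when 6 of the 7 MAPs stayed below 0 without ICSS replicate 3 or Sham replicate 2 and all 7 otherwise. Over all alternatives, the median of the whole set ran from -0.037 to 0.00016 and the alpha tubulin median from -0.026 (without ICSS replicate 1) to 0.080. The stathmin median ran from -0.020 (each feature on its own) to 0.11, the beta tubulin median from -0.10 (each feature on its own) to -0.0028 and the kinesin median from -0.024 to 0.024. The adjusted p of Kifc3 from limma lay between 0.0588 and 0.276 over these alternatives. The 7 genes at an unadjusted p under 0.05 kept their sign in all 119 alternative values, but not all of these could have turned. The replicate block, the other moderation and a fit to named genes alone leave each difference as it is. So does the median over features for these 7 genes, which have 1 or 2 features each. They were also picked by small p, which makes a turned sign less likely. Of all 866 single-gene values, 34, in 15 genes, turned sign, none of them called. Scaling to an equal median absolute ratio gave identical values because the arrays already shared that ratio. The SD of the arrays, from 0.36 to 0.39, was not made equal by this setting. A filter on dim spots was not run, since only log2 ratios were used. Tubulin features can cross-bind, and the pools of 3 rats hide the spread between animals.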

Other observations

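A pair of tubulin features carried several gene symbols and entered no gene's value. The alpha tubulin feature had a log2 ratio of -0.030 ± 0.050 in ICSS pools and -0.018 ± 0.10 in Sham pools (SD, n = 4 each), a difference of -0.012 with a 95% interval of -0.16 to 0.14. The beta tubulin feature had a log2 ratio of 0.32 ± 0.062 in ICSS pools and 0.36 ± 0.10 in Sham pools (SD, n = 4 each), a difference of -0.045 with a 95% interval of -0.19 to 0.11.

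Dentate granule cell markers, outside the comparisons of the microtubule genes, were higher in ICSS pools for 4 of 5 genes and lower for 1, with a median difference of 0.069 and none called. The lower one, C1ql2, a secreted protein of mossy fibre synapses, had 1.83 ± 0.084 in ICSS pools and 2.41 ± 0.25 in Sham pools (SD, n = 4 each), a difference of -0.58 (limma adjusted p = 0.123). Stxbp6 had 0.75 ± 0.021 in ICSS pools and 0.56 ± 0.075 in Sham pools (SD, n = 4 each), a difference of 0.20 (limma adjusted p = 0.209). The pools of both genes were separate, as were those of 7.80% of all genes and probes, and neither passed the adjusted test.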
